A study of Mus musculus with 5 samples.

Results

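Gpnmb was examined together with 9 genes that lipid-laden phagocytes commonly express with it, Trem2, Tyrobp, Apoe, Spp1, Lgals3, Cd68, Lpl, Fabp5 and Cd9, to ask whether their RNA moved with Gpnmb in the mouse iridocorneal angle. These 10 genes were chosen by name from 56941 gene identifiers, and all 10 were among the 19713 genes with enough counts to be tested. RNA came from 3 pools of DBA/2J mice and 2 pools of DBA/2J-Gpnmb+/SjJ (Gpnmb+) mice, 12 months old and untreated, and both strains were labelled as male and female. Both strains carry the Tyrp1 b mutation. DBA/2J mice also carry the Gpnmb R150X mutation, and Gpnmb+ mice have the wild-type Gpnmb allele restored on the DBA/2J background. Each pool was described as 3 mice, but the library names of the Gpnmb+ pools name 2 animals each. The tissue was a bulk dissection of the angle ring from which iris and ciliary body had been removed, and remnants of them stayed attached.

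Gpnmb encodes a heavily glycosylated type I membrane protein of melanosomes and lysosomes, and it is made by pigment cells and by macrophages that have taken up lipid or debris. In such macrophages and in microglia, lipid ligands bind the receptor Trem2, whose signal is carried by the adaptor Tyrobp, and a characteristic set of lipoprotein, lysosomal and secreted genes is switched on. Gpnmb RNA often belongs to this set, which makes the other genes a natural comparison in a strain without functional Gpnmb. In Gpnmb+ eyes, the study's immunofluorescence placed the protein in the trabecular meshwork, the ciliary body and the iris. Which cells held the Gpnmb RNA of these pools was not tested.

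The stretch around codon 150 of Gpnmb is shown because the allele that separates the strains lies in it. It is the reference sequence of transcript Gpnmb-201 in GRCm39, chr6:49022289-49022351 on the plus strand, within coding exon 4 of 11 (49022239 to 49022412), and the capitals mark codon 150 of 573:
Gpnmb codon 150 region: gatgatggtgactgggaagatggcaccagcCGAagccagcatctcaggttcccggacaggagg
The codon CGA encodes arginine. The single-base change that turns it into a stop codon is C448T, counted from 1 at the A of the start codon, which gives TGA at chromosome 6 position 49022319. It would also write CAGCTG, the recognition sequence of the restriction enzyme PvuII, which the reference stretch does not hold. Codons before it make up 26.0% of the reading frame. The deposited counts are sums over the whole gene and do not show which allele a read carried.

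Gpnmb (ENSMUSG00000029816, chr6:49013426-49047863, plus strand) was lower in DBA/2J by a factor of 51.0, and none of the other 9 genes was called. A gene was called when it differed by at least 1.5-fold and had an adjusted p of at most 0.05 in edgeR (quasi-likelihood test, p adjusted by Benjamini-Hochberg over all 19713 genes). Over all genes 157 were called, or 0.796%, with 0.502% higher and 0.294% lower in DBA/2J. Of the other 9 genes 5 had positive and 4 negative log2 fold changes, where positive is higher in DBA/2J, and their median was 0.11 beside -0.02 for all genes tested. By edgeR 1 of the 9, Fabp5, had an unadjusted p of at most 0.05, beside 15.9% of all genes. With a 1.5-fold difference required too, 0 of the 9 and 8.67% of all genes passed at that unadjusted level, and DESeq2 called 0 of the 9. In 2 of the 9, Apoe and Fabp5, all DBA/2J pools lay above both Gpnmb+ pools, an arrangement that 17.3% of all genes showed, and 34.5% of all genes separated the genotypes in either direction. These shares are near those of all genes.

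For 3 pools and 2 pools, p = 0.2 is the smallest value that exact permutation of the labels can give when its smaller tail is doubled. Every p printed here is therefore taken from a model fitted across all genes. In bulk tissue, fewer cells of a type and less RNA per cell cannot be told apart. The libraries held 43900661 to 49837758 counts. Genotype moved with sex-linked RNA. Xist, transcribed from the inactive X chromosome, was at 0 to 54.2 CPM (counts scaled to a common library size) in DBA/2J and at 155 and 187 in Gpnmb+, and the Y-linked Ddx3y was at 35.1 to 97.1 and at 0 and 0.0817. Ddx3y held 0 and 4 counts in the Gpnmb+ pools and Xist 0 counts in DBA/2J pool 2, so the RNA of the Gpnmb+ pools goes against the labelled presence of males, and that of DBA/2J pool 2 shows no female RNA. Sex and genotype cannot be told apart in any result here. Trabecular meshwork markers, which stand for the dissected tissue, were present in all pools. Of 8 such markers 6 had negative log2 fold changes, and the median was -0.63. All DBA/2J pools lay below both Gpnmb+ pools in 5 of the 8. edgeR called Edn3 and Tfap2b lower. The call of Edn3 was lost with any single pool left out, and that of Tfap2b without DBA/2J pool 1 or 2 or Gpnmb+ pool 2. The sum of the 8 markers points the other way, with 6864 to 7469 CPM in DBA/2J and 6705 and 5962 CPM in Gpnmb+. That sum is led by Chil1, at 2991 to 4087 CPM in DBA/2J and 1879 and 1183 CPM in Gpnmb+. Of 8 endothelial markers 0 were called, and of 9 tested lens and photoreceptor markers 0 were called, with 1806 CPM in Gpnmb+ pool 2 and 334 to 816 CPM in the other pools. The number of genes called over all genes fell to between 1 and 17 with a DBA/2J pool left out and to 2 without Gpnmb+ pool 2.

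In the 3 DBA/2J pools, in the order of their numbers, Gpnmb RNA was at 45.9, 52.0 and 43.6 CPM, and in the Gpnmb+ pools it was at 2555 and 2259.7 CPM. Values of other genes are given in the same pool order. All DBA/2J pools lay far below both Gpnmb+ pools, and pools of a genotype differed by at most 1.19 times. The counts behind these levels were 1946 to 2234 in DBA/2J and 110568 and 129659 in Gpnmb+, so Gpnmb was far from undetected in DBA/2J. Its mean was 47.2 ± 4.35 CPM (SD, n = 3) in DBA/2J and 2407 ± 209 CPM (SD, n = 2) in Gpnmb+, so that DBA/2J held 1.96% of the Gpnmb+ level. The log2 fold change was -5.67 (standard error 0.14, 95% interval -6.01 to -5.33), which is 40.3-fold to 64.5-fold lower, and the adjusted p was 0.000231 in edgeR. It ranged from -5.76 to -5.58 when single pools were omitted, with adjusted p from 0.00166 to 0.0174 in edgeR, and Gpnmb remained called in every fit. As a share of each library's counts, Gpnmb took 0.00467% in DBA/2J and 0.245% in Gpnmb+.

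**Figure D1:**
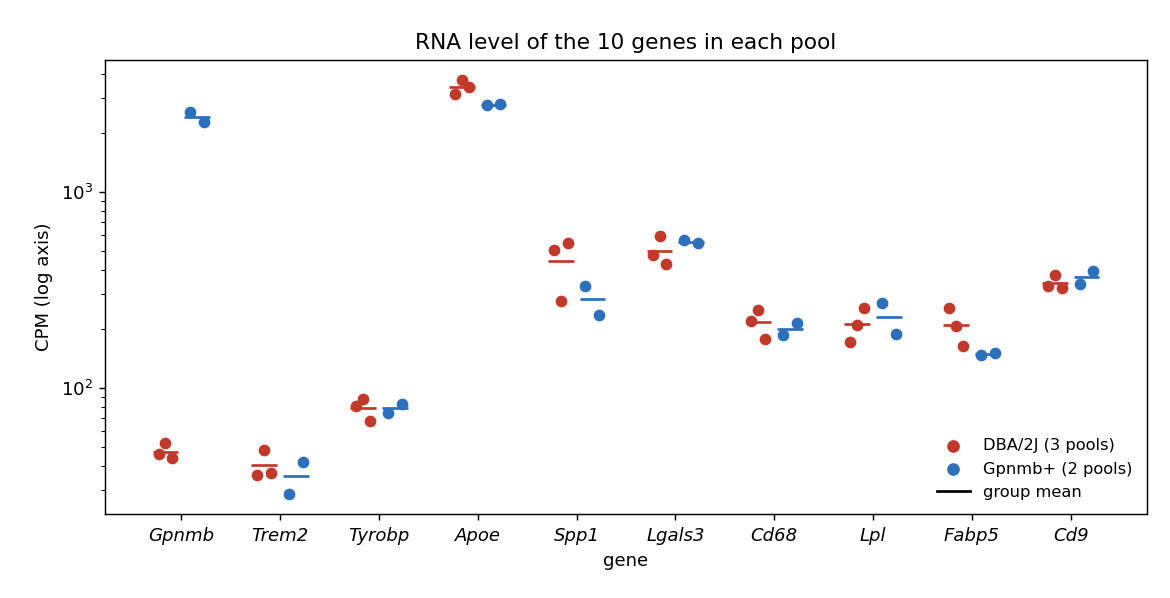
RNA level of the 10 genes in CPM on a log axis, with a point for each of 3 DBA/2J pools (red) and 2 Gpnmb+ pools (blue) and a line at each group mean. Gpnmb is at 43.6 to 52.0 CPM in DBA/2J and at 2259.7 and 2555 CPM in Gpnmb+, while the points of both genotypes lie close together or overlap for the other genes.

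Gpnmb is also a pigment cell gene. Of 8 pigment cell markers 5 had negative and 3 positive log2 fold changes, the median was -0.15, and all DBA/2J pools lay below both Gpnmb+ pools in 3 and above them in 1. Together the 8 markers, among them Tyr, Tyrp1, Dct and Mlana, gave 3734 to 4895 CPM in DBA/2J and 3923 and 4613 CPM in Gpnmb+, so the sums overlapped. edgeR called 1 of the 8, Slc45a2, a transporter of pigment cells, with 2.45 to 4.28 CPM in DBA/2J and 16.9 and 17.8 CPM in Gpnmb+, and that call was lost without DBA/2J pool 1 or 2 or Gpnmb+ pool 2. The pigment cell transporters Slc24a5 and Oca2 were the others with all DBA/2J pools lower, at -0.52 (95% interval -0.90 to -0.15) and -0.27 (95% interval -0.50 to -0.05), and were not called. None was lower on the scale of Gpnmb, and the part of pigment cells in the Gpnmb difference was not tested. Pmel, a paralog of Gpnmb that forms the fibrils of melanosomes, was at 143, 113 and 183 CPM in DBA/2J and 279 and 222 CPM in Gpnmb+. Its groups did not overlap, and its log2 fold change of -0.77 (95% interval -1.29 to -0.26) was not called by edgeR (adjusted p = 0.164) but was called by DESeq2 (adjusted p = 0.0174). Pmel, Slc24a5 and Oca2 were named after their values were seen.

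The receptor and its adaptor did not separate the genotypes. Trem2 (ENSMUSG00000023992, chr17:48653429-48661175, plus strand), a phagocyte receptor for lipids and lipoproteins, was at 35.8, 48.1 and 36.8 CPM in DBA/2J and at 28.8 and 41.7 CPM in Gpnmb+. The lowest pool was Gpnmb+ pool 1 and the highest was DBA/2J pool 2, and Gpnmb+ pool 2 lay inside the DBA/2J range. The log2 fold change was 0.19 (standard error 0.20, 95% interval -0.30 to 0.69, adjusted p = 0.701 in edgeR), and it ran from -0.05 without Gpnmb+ pool 1 to 0.48 without Gpnmb+ pool 2.

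Tyrobp (ENSMUSG00000030579, chr7:30113170-30117010, plus strand), the adaptor that passes on the signal of Trem2 and of other myeloid receptors, was at 80.9, 87.6 and 67.4 CPM in DBA/2J and at 74.6 and 82.9 CPM in Gpnmb+. Both Gpnmb+ pools lay within the range of the DBA/2J pools. The estimate, -0.00 on the log2 scale, had a 95% interval from -0.32 to 0.31 (standard error 0.13, adjusted p = 0.994, edgeR), so a difference of more than 1.5 times in either direction lay outside the interval.

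Genes that act after Trem2 and Tyrobp were measured too. Of 10 genes for signalling from or shedding of the receptor, none was called by edgeR. Log2 fold changes were positive in 9, the median was 0.17, and in 2, Adam17 and Card9, all DBA/2J pools lay above both Gpnmb+ pools. Adam17, a protease that cuts Trem2 from the cell surface, was at 110.4 to 119 CPM in DBA/2J and at 102 and 103 CPM in Gpnmb+. The lipid phosphatase Inpp5d, which restrains this signal, had a log2 fold change of 0.36 (95% interval -0.11 to 0.83), the kinase Syk had 0.09 (95% interval -0.32 to 0.49) and the protease Adam10 had -0.04 (95% interval -0.24 to 0.17).

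Among the genes that carry or release lipid, Apoe and Fabp5 had no Gpnmb+ pool as high as their lowest DBA/2J pool, and Lpl overlapped. Apoe (ENSMUSG00000002985, chr7:19430034-19434947, minus strand), the apolipoprotein that macrophages secrete to carry cholesterol, was at 3162, 3697 and 3422 CPM in DBA/2J and at 2758 and 2816 CPM in Gpnmb+. The lowest DBA/2J pool lay above the higher Gpnmb+ pool. The log2 fold change was 0.30 (standard error 0.13, 95% interval -0.01 to 0.61, adjusted p = 0.329 in edgeR and 0.0567 in DESeq2) and ranged from 0.24 to 0.35 when single pools were omitted. Neither test called it. Which cells held the Apoe RNA was not tested.

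Fabp5 (ENSMUSG00000027533, chr3:10077602-10081674, plus strand), a carrier of fatty acids in the cytoplasm of epithelial cells and macrophages, was at 256, 207 and 163 CPM in DBA/2J and at 146 and 149.9 CPM in Gpnmb+. DBA/2J pool 1 was the highest, and the lowest DBA/2J pool was close to the Gpnmb+ pools. DBA/2J was higher by 0.50 on the log2 scale (standard error 0.19, 95% interval 0.04 to 0.95, adjusted p = 0.281 in edgeR and 0.134 in DESeq2) and ran from 0.33 to 0.65 with each pool left out. Surface epithelium, which also uses Fabp5, was present in all pools. Its 8 markers summed to 7671 to 11504 CPM in DBA/2J and 12531 and 10306 CPM in Gpnmb+, 0 of 8 were called, none was at 0, and the corneal keratin Krt12 was at 9.43 to 254 CPM in DBA/2J against 1701 and 554 CPM. The part of these cells in the Fabp5 level was not tested.

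Lpl (ENSMUSG00000015568, chr8:69284603-69360100, plus strand), the lipase that frees fatty acids from lipoproteins, was at 172, 209 and 255 CPM in DBA/2J and at 272 and 188 CPM in Gpnmb+. The groups overlapped, and Gpnmb+ pool 1 was the highest. The estimated log2 fold change was -0.12 (standard error 0.22, 95% interval -0.64 to 0.41, adjusted p = 0.836 in edgeR), and its sign depended on single pools, from -0.36 without Gpnmb+ pool 2 to 0.17 without Gpnmb+ pool 1. Adipocyte RNA, a rich source of Lpl elsewhere, was near 0. The 8 adipocyte markers summed to 0.56 to 1.17 CPM in DBA/2J and 0.828 and 0.511 CPM in Gpnmb+, and 4 of 8 had too few counts to be tested.

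**Figure D2:**
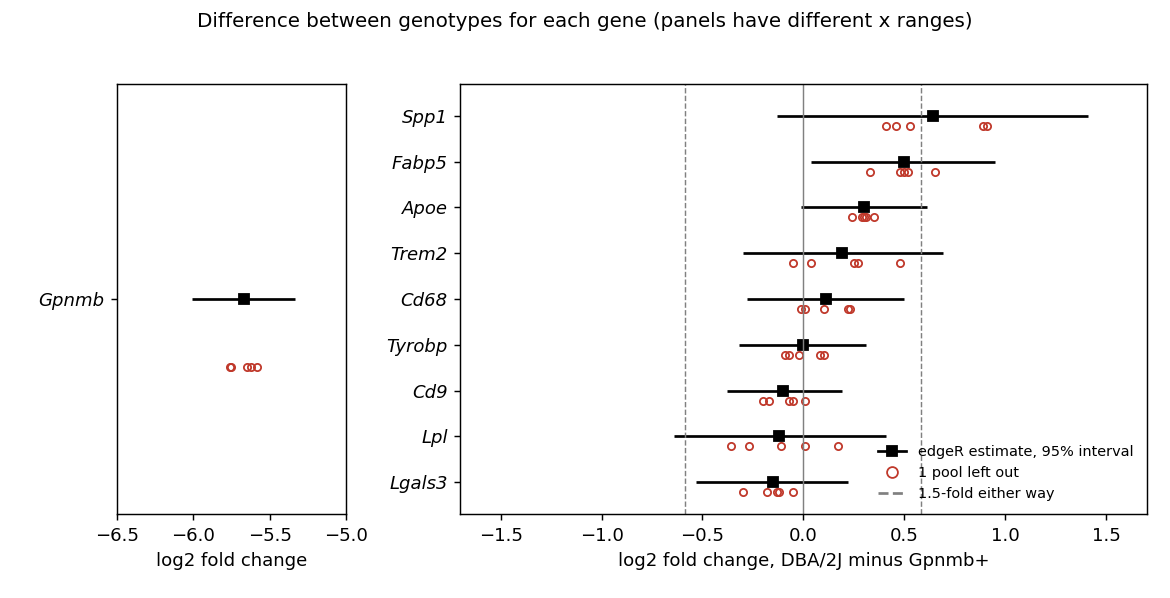
Log2 fold change of each gene, DBA/2J minus Gpnmb+, as the edgeR estimate (square) with its 95% interval (line) and the estimates with 1 pool left out (open circles); Gpnmb has its own panel and x range. Gpnmb lies between -6.01 and -5.33, and the dashed lines at 1.5-fold enclose the whole interval of Cd68, Tyrobp, Cd9 and Lgals3.

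Genes that share the lipoprotein steps of Apoe and Lpl gave no call in edgeR among the 13 of 15 tested. Their median log2 fold change was 0.19, 8 were positive, and in 3 all DBA/2J pools lay above both Gpnmb+ pools. The Apoe receptor Lrp1 had a log2 fold change of 0.14 (95% interval -0.26 to 0.54). The sorting receptor Sorl1 had -0.25 (95% interval -0.67 to 0.18) and Pltp, which transfers phospholipids between lipoproteins, had -0.15 (95% interval -0.44 to 0.14). Apoc2 and Apoc4, neighbours of Apoe, had too few counts to be tested.

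The other Fabp genes were low. Of 8 relatives of Fabp5, 6 were tested, 0 were called by edgeR, and the median log2 fold change was -0.39 with 5 negative. Fabp4, the relative best known from macrophages and fat cells, was at 25.9 to 40.0 CPM over the 5 pools, and its log2 fold change was 0.14 (95% interval -0.32 to 0.59). Fabp3 at -0.41 (95% interval -0.91 to 0.08) and Fabp6 at -0.71 (95% interval -1.25 to -0.18, adjusted p = 0.205 in edgeR) had all DBA/2J pools below both Gpnmb+ pools, an arrangement that 17.2% of all genes showed, at levels of 2.70 to 6.85 CPM. Fabp2 ranged from 4.04 to 19.2 CPM between the Gpnmb+ pools, and its log2 fold change of -0.30 changed sign with Gpnmb+ pool 2 left out.

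Neither secreted protein gene was called. Spp1 (ENSMUSG00000029304, chr5:104582165-104589235, plus strand) encodes osteopontin, an integrin and Cd44 ligand, and was at 504, 276 and 545 CPM in DBA/2J and at 332 and 235 CPM in Gpnmb+. DBA/2J pool 2 lay between the Gpnmb+ pools, and DBA/2J pools 1 and 3 lay above both. The DBA/2J pools differed by 1.98 times, the widest spread of the 10 genes within a genotype. Its log2 fold change, the largest of the 9 at 0.64 (standard error 0.32, 95% interval -0.13 to 1.41), was not called (adjusted p = 0.388, edgeR). It ran from 0.41 without Gpnmb+ pool 2 to 0.91 without Gpnmb+ pool 1.

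Nonpigmented ciliary epithelium markers moved with genotype. For each of its 9 markers the lowest DBA/2J pool lay above both Gpnmb+ pools, at a sum of 1465 to 1869 CPM against 814 and 579 CPM, and edgeR called 3 of 9, Six6, Col9a1 and Col9a2, each of which lost its call with any DBA/2J pool or Gpnmb+ pool 2 left out. Skeletal muscle markers summed to 190.4 to 447 CPM in DBA/2J and 191 and 119.8 CPM in Gpnmb+, with 0 of 8 called. The part of either tissue in the Spp1 level was not tested.

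Lgals3 (ENSMUSG00000050335, chr14:47605208-47623624, plus strand) encodes galectin-3, a sugar-binding protein that marks damaged lysosomes and is also made by epithelia. It was at 477, 592 and 426 CPM in DBA/2J and at 564 and 546 CPM in Gpnmb+, and the range of the DBA/2J pools enclosed both Gpnmb+ pools. As a log2 fold change the difference was -0.15 (standard error 0.15, 95% interval -0.53 to 0.22, adjusted p = 0.675 in edgeR).

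Of 10 genes for partners of osteopontin, galectin-3 and Gpnmb, none was called by edgeR, the median log2 fold change was 0.21, and all DBA/2J pools lay above both Gpnmb+ pools in 4 and below them in 1. Sdc4, a heparan sulfate proteoglycan that binds Gpnmb, was at 306 to 375 CPM in DBA/2J and at 243 and 248 CPM in Gpnmb+. Its log2 fold change of 0.46 (95% interval 0.19 to 0.73) and that of the integrin chain Itgb5 at 0.35 (95% interval 0.11 to 0.58) did not pass adjustment in edgeR (adjusted p = 0.136 and 0.171). In DESeq2 both did (adjusted p = 0.006 and 0.0208), with differences under 1.5-fold. The integrin chain Itgb1 had 0.21 (95% interval -0.09 to 0.50). Cd44, a receptor for osteopontin, had 0.38 (95% interval -0.54 to 1.30), with DBA/2J pool 1 at 374 CPM and all other pools at 140.4 to 250.3 CPM, and its log2 fold change was -0.01 without that pool.

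The lysosomal and surface proteins were close between the genotypes. Cd68 (ENSMUSG00000018774, chr11:69555037-69557067, minus strand), a Lamp family glycoprotein of macrophage lysosomes, was at 219, 250.2 and 177 CPM in DBA/2J and at 186 and 214 CPM in Gpnmb+. Both Gpnmb+ pools lay within the DBA/2J range. As a log2 fold change the difference was 0.11 (standard error 0.16, 95% interval -0.28 to 0.50, adjusted p = 0.794 in edgeR).

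Cd9 (ENSMUSG00000030342, chr6:125437210-125471778, minus strand), a tetraspanin of the cell membrane, was at 330, 377 and 321 CPM in DBA/2J and at 339.7 and 393 CPM in Gpnmb+. The groups overlapped, with Gpnmb+ pool 2 the highest. The estimated log2 fold change was -0.10 (standard error 0.12, 95% interval -0.38 to 0.19, adjusted p = 0.741 in edgeR). Among 11 tested tetraspanin partners and Lamp family genes, Pmel included, none was called by edgeR and the median was 0.09. All DBA/2J pools lay above both Gpnmb+ pools in 5 and below them in 1, Pmel, beside 17.3% and 17.2% of all genes. Cd81, a tetraspanin that pairs with Cd9, had 0.32 (95% interval 0.02 to 0.62, adjusted p = 0.289 in edgeR), Lamp2 had 0.19 (95% interval -0.08 to 0.45), Ptgfrn had 0.09 (95% interval -0.11 to 0.29) and Lamp1 had 0.05 (95% interval -0.20 to 0.31).

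Over the 9 genes other than Gpnmb, the 95% interval stayed within 1.5-fold in either direction for 4 (Tyrobp, Lgals3, Cd68 and Cd9), as it did for 42.6% of all genes tested. It stayed within 2-fold for 8 of the 9, Spp1 being the exception, and for 63.8% of all genes. A missed threshold does not show equal levels, but changes on the scale of the Gpnmb difference lay outside every one of these intervals.

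The 9 genes did not all share a pool profile, though some were alike. DBA/2J pool 2 was the highest of the 5 pools for 5 of the 9 (Trem2, Tyrobp, Apoe, Lgals3 and Cd68). DBA/2J pool 3 was the lowest for 4 of the 9 (Tyrobp, Lgals3, Cd68 and Cd9) and Gpnmb+ pool 1 for 3. Relative to its own mean over the 5 pools, Spp1 was at -0.38 in DBA/2J pool 2 on the log2 CPM scale, where Trem2 was at 0.35. Within DBA/2J, the highest and lowest pool of a gene differed by 1.17 to 1.98 times, and within Gpnmb+ by 1.02 to 1.45 times.

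**Figure D3:**
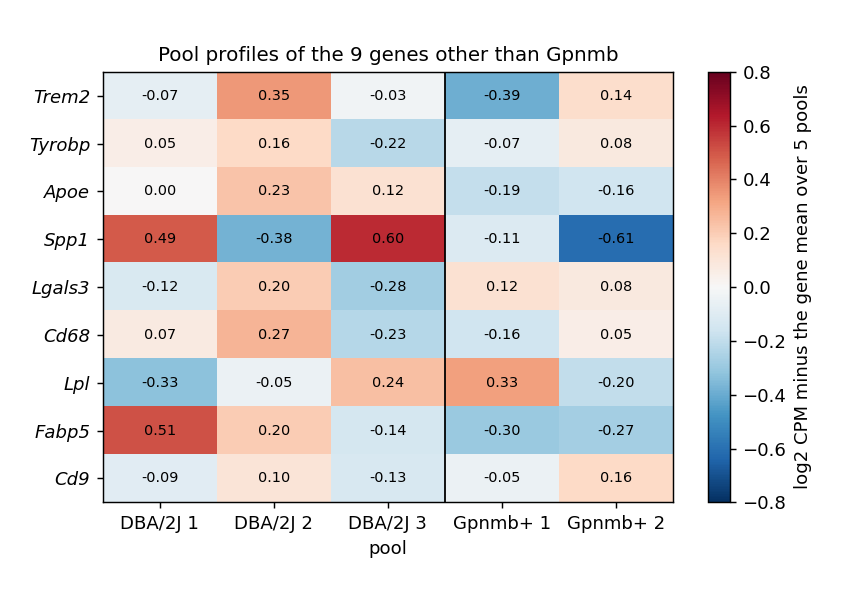
Log2 CPM of the 9 genes other than Gpnmb in each of the 5 pools, as the difference from the gene's own mean over the pools (red above, blue below, value printed in each cell). DBA/2J pool 2 is the highest pool for Trem2, Tyrobp, Apoe, Lgals3 and Cd68, while Spp1 is highest in DBA/2J pools 1 and 3.

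Levels of different genes were compared in TPM, a transcript abundance that divides counts by exon length and scales every library to the same sum. In DBA/2J, Apoe stood highest of the 10 with a mean of 3500.2 ± 287 TPM (SD, n = 3), followed by Lgals3 at 890.4 ± 122, Cd9 at 665 ± 42.1, Cd68 at 648 ± 85.0 and Spp1 at 646 ± 230.3. Cd9, Cd68 and Spp1 did not differ beyond their spread, nor did Spp1 and the next gene. Tyrobp at 475 ± 43.2 TPM, Fabp5 at 234 ± 45.3 and Lpl at 72.1 ± 17.1 came next, and Trem2 at 33.5 ± 4.93 and Gpnmb at 29.4 ± 1.82 closed the order within each other's spread at these exon lengths. In Gpnmb+ the mean TPM of Gpnmb was 1529 ± 146 (SD, n = 2), second to Apoe at 2896 ± 17.0 and above Lgals3 at 1013 ± 31.6. The remaining order there was Cd9 at 725 ± 68.2, Cd68 at 614 ± 56.7, Tyrobp at 486 ± 32.0, Spp1 at 420 ± 105, Fabp5 at 169.8 ± 1.58, Lpl at 79.3 ± 21.1 and Trem2 at 29.9 ± 7.48 TPM. Cd9 and Cd68, and Tyrobp and Spp1, overlapped with their neighbours in spread. With the length of the canonical transcript in place of all annotated exons, the DBA/2J mean of Fabp5 was 536 TPM, which moved it to rank 4 of 10, Trem2 was at 94.5 TPM and Gpnmb at 31.6 TPM, so those last genes lay close only with the first length, and the Gpnmb ranks stayed at 10 in DBA/2J and 2 in Gpnmb+.

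To set the genes against the amount of macrophage RNA, a list of 16 macrophage identity genes was used, including Csf1r, Adgre1, Mrc1 and the complement C1q chains. None of the 16 was called by edgeR, 14 had positive log2 fold changes, the median was 0.27, and in 5 all DBA/2J pools lay above both Gpnmb+ pools. Together they gave 3333, 4333 and 3514 CPM in DBA/2J and 3136 and 3886 CPM in Gpnmb+, with no marker at 0. Lyz2 alone gave 2065, 3201 and 2597 CPM in DBA/2J and 2125 and 3113 CPM in Gpnmb+, most of each sum. These sums, led by Lyz2, overlapped between the groups, and macrophage identity RNA was present in every pool.

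On a log2 ratio to this sum, Gpnmb was at -6.18, -6.38 and -6.33 in DBA/2J and at -0.30 and -0.78 in Gpnmb+, a difference of -5.76. The Gpnmb difference was thus about as large relative to macrophage RNA as in CPM. Of the other 9 genes, 8 overlapped between the genotypes on this ratio. Cd9 did not, at -3.34, -3.52 and -3.45 in DBA/2J against -3.21 and -3.31, a difference of -0.18. Which genes separated depended on the reference, since against Csf1r alone or the list without Lyz2 it was Lgals3 and not Cd9, and against the sum of C1qa, C1qb and C1qc it was Tyrobp, Lgals3 and Cd9, all lower in DBA/2J. The ratio differences of Apoe were 0.21 against the full list, 0.01 against Csf1r and -0.10 against C1q, and its groups overlapped on all of them.

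Other genes of the lipid response mostly had small positive log2 fold changes, and a single gene passed the test. Of 29 such genes 26 had positive log2 fold changes, the median was 0.25, and in 13 all DBA/2J pools lay above both Gpnmb+ pools and in none below, beside 17.3% and 17.2% of all genes. The macrophage identity list had a median of 0.27, and the difference between the lists was not tested. edgeR called 1 of the 29, Mmp12, the elastase of macrophages. It was at 206, 167 and 170.5 CPM in DBA/2J and at 99.7 and 96.6 CPM in Gpnmb+. The difference on the log2 scale was 0.89 (standard error 0.12, 95% interval 0.60 to 1.17, adjusted p = 0.0440 in edgeR), and ranged from 0.78 to 0.94 when single pools were omitted, but adjusted p was then 0.0936 to 0.190 in edgeR and the call was lost in each of these fits.

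The lysosomal protease Ctsd was at 1160.4, 1231 and 914 CPM in DBA/2J and at 719.7 and 800.3 CPM in Gpnmb+. Its groups did not overlap, and its log2 fold change of 0.54 (95% interval 0.15 to 0.92) had an adjusted p of 0.185 in edgeR and 0.0178 in DESeq2, with a difference under 1.5-fold. The proteases Ctss, Ctsb and Ctsl had log2 fold changes of 0.37 (95% interval -0.10 to 0.84), 0.19 (95% interval -0.09 to 0.46) and 0.13 (95% interval -0.24 to 0.50). The largest estimate on the list was that of Ch25h, which makes 25-hydroxycholesterol, with 17.0 to 26.9 CPM in DBA/2J and 8.94 and 3.92 CPM in Gpnmb+. Its log2 fold change of 1.85 (95% interval 0.89 to 2.80) was not called by edgeR (adjusted p = 0.104) but was called by DESeq2, and it was named after its values were seen.

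**Figure D4:**
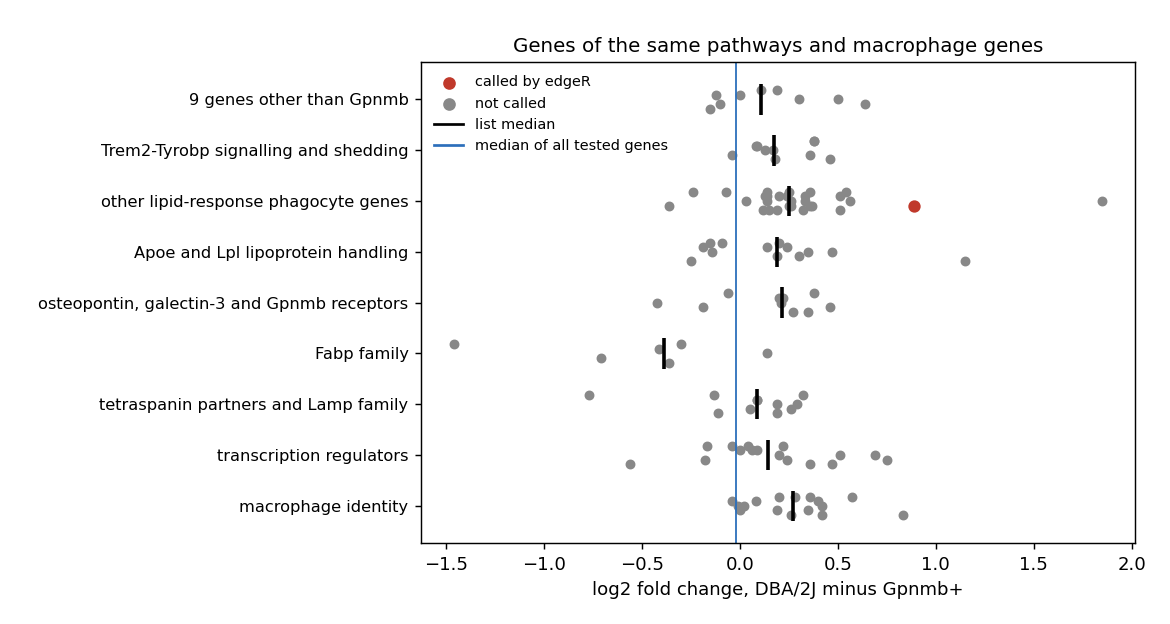
Log2 fold changes, DBA/2J minus Gpnmb+, of the 9 genes other than Gpnmb, of the pathway lists and of the macrophage identity genes, with a point for each tested gene, a black line at each list's median and a blue line at the median of all tested genes (-0.02). Mmp12 at 0.89 is the called gene (red), and the list medians run from -0.39 for the Fabp family to 0.27 for macrophage identity.

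Of 16 transcription regulators of macrophage and lysosomal genes, none was called by edgeR and the median was 0.14. All DBA/2J pools lay above both Gpnmb+ pools in 4 and below them in 2, beside 17.3% and 17.2% of all genes. Mitf, Tfeb and Tfe3, the basic helix-loop-helix factors that drive lysosomal and Gpnmb transcription, had log2 fold changes of 0.04 (95% interval -0.28 to 0.37), 0.09 (95% interval -0.19 to 0.36) and 0.20 (95% interval 0.01 to 0.39), and were named for that role after their values were seen. Bhlhe40 had 0.47 (95% interval -0.03 to 0.98), Bhlhe41 -0.17 (95% interval -0.78 to 0.44) and Rxra -0.18 (95% interval -0.40 to 0.04).

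Promoters of the 10 genes were searched for 2 forms of the E-box that Mitf and its relatives bind, CATGTG and CACGTG, and for GAGGAA, the core bound by the myeloid factor Spi1. The window ran from 250 bases before to 150 bases after the start of the canonical transcript, and both strands were read. CATGTG was found in 5 of 10 genes and in 14.3% of 21770 protein-coding promoters, CACGTG in 0 of 10 and in 9.42%, and GAGGAA in 5 of 10 (Trem2, Tyrobp, Spp1, Cd68 and Lpl) and in 34.9%. Each CATGTG match is printed with 12 bases on either side, on the strand of its gene in GRCm39, with the match or its reverse complement CACATG in capitals, because it is a shared letter pattern that the choice of genes did not use:
Gpnmb, chr6:49013513-49013542, 5′ UTR exon: tgcttaaaacatCACATGatctccctctgg
Tyrobp, chr7:30113031-30113060, before the start: atgaagacctgaCATGTGtatctcttctct
Apoe, chr7:19434035-19434064, before the start: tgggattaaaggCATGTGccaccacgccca
Spp1, chr5:104581919-104581948, before the start: cacgttctttaaCATGTGggggaaggagca
Cd9, chr6:125471744-125471773, 5′ UTR exon: ggcatccctccgCACATGcgcatagcagct
Of these 5 genes, Gpnmb was called and Tyrobp, Apoe, Spp1 and Cd9 were not. A match describes letters and not a bound site, and binding was not measured. Repeat sequence was not set apart in the search, so a match can lie in a repeat.

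Genes whose profile over the 5 pools was most like that of Gpnmb were sought among 13886 genes with a mean log2 CPM of at least 1 by the root mean square difference of centred log2 CPM. The closest were Car6 at 1.25, Syt4 at 1.45, Nefm at 1.46, Lypd2 at 1.58 and Slc45a2 at 1.60 log2 units. Even the closest was thus far from the Gpnmb profile. Car6, a secreted carbonic anhydrase, was at 0.967 to 1.48 CPM in DBA/2J and at 9.91 and 12.2 CPM in Gpnmb+. Lypd2 was not called (adjusted p = 0.179, edgeR), and the other 4 were. None of these 4 was called without DBA/2J pool 2, and Slc45a2 was also not called without DBA/2J pool 1 or Gpnmb+ pool 2. The 10 genes themselves were left out of this ranking and of that for Trem2. The ranking therefore cannot show how close the 9 phagocyte genes came to Gpnmb.

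For Trem2 the closest profiles were those of Bace2 at 0.02, Anpep at 0.03, Creg1 at 0.03, C030014I23Rik at 0.04 and Gpld1 at 0.05 log2 units over the same 5 pools. None of these 5 was called, and like Trem2 each was highest in DBA/2J pool 2 and lowest in Gpnmb+ pool 1. Creg1, a lysosomal glycoprotein, was at 163, 222 and 176 CPM in DBA/2J and at 138 and 189 CPM in Gpnmb+. With 5 pools such likeness is a description of these libraries.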

How the data were processed

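Polyadenylated RNA from 5 pools was sequenced as paired-end reads. Per the labels and the study's methods, fastp and then STAR were used by the authors to trim and align reads (GRCm39, Ensembl 110), and they deposited counts of uniquely aligned reads per gene, without normalization. The counter, tool versions and strand setting are not given in the sources used here, so overlapping genes and near-identical copies (Fabp5 has processed pseudogenes) are uncertain. Annotated overlaps of Gpnmb, Spp1 and Cd9 with a count held at most 16 counts. The study describes each pool as a biological replicate. Nothing in the labels says that pools were prepared independently, so p-values measure the spread between these pools.

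Names and positions came from GENCODE M39 (56323 of 56941 identifiers). Sequences were read from the GRCm39 genome, and protein sequences were not used here. Genes reaching 10 counts in any pool (at least 1) were fitted with TMM scaling and edgeR 4.0.16 (quasi-likelihood, no covariate), in R 4.3.3. Intervals are 95% and come from that fit. CPM is scaled by TMM. Log2 CPM used a prior count of 2. TPM was computed from the counts and GENCODE exon lengths. Python 3.11.15, numpy 2.4.6, pandas 2.3.3, scipy 1.17.1 and matplotlib 3.10.9 made tables and figures. Tested on simulated data for this comparison, with 200 of 19095 genes changed 4-fold, edgeR recovered 200 and made 10 false calls. The changed genes were drawn from well-counted genes, and a single setting of the spread between pools was used for all genes. Smaller differences were not simulated, so this recovery does not measure the power for differences near 1.5-fold.

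The members, lists and tests were chosen with earlier results of these data known, so no list is independent evidence. Named genes were the 10 members, called genes of each list, up to 4 uncalled genes per list with the highest mean log2 CPM, and the 5 genes most like Gpnmb and Trem2. Uncalled marker genes are given mostly as list sums, and a few named genes are not reported here. Alternatives were DESeq2 1.42.0 with and without ashr 2.2.63, DESeq2's size factors in edgeR, limma-voom (limma 3.58.1), filterByExpr, no count filter, other thresholds, a replicate block and each pool left out. Leaving out a Gpnmb+ pool leaves 1, assumed to vary like the DBA/2J pools. The macrophage list without Lyz2 and the canonical transcript length were added after seeing the data.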

Additional observations from a re-analysis of the deposited data

How the results depend on the processing

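Gpnmb was the single gene of the 10 called under all alternatives run: 2 forms of DESeq2, DESeq2's size factors, limma-voom, both other count filters, unadjusted p-values, no fold minimum, the replicate block and each pool left out. Counts over other genes moved more. The 157 genes called over all genes became 927 with DESeq2, 734 with DESeq2 and ashr, 360 with no count filter and 1710 with unadjusted p-values, and ran from 1 to 217 with a pool left out (6, 1 and 17 without DBA/2J pools 1, 2 and 3, 2 without Gpnmb+ pool 2 and 217 without Gpnmb+ pool 1). The 8 called genes of the pathway and marker lists became 21 with DESeq2, 17 with DESeq2 and ashr and 14 with no count filter, and ran from 0 to 11 with a pool left out. The genes separated by genotype on the macrophage ratio, 2 in the main comparison, became 4 with C1q as reference and 4 to 5 with a pool left out, where fewer pools have to separate. The causes of the other shifts were not tested.

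Estimates near 0 changed sign. The log2 fold change of Tyrobp, -0.00 in the main test, was 0.00 with DESeq2's size factors and with both forms of DESeq2, 0.02 with no count filter and 0.10 with the replicate block, and ran from -0.09 to 0.10 with a pool left out. With a pool left out, Trem2 ran from -0.05 to 0.48, Cd68 from -0.01 to 0.23, Lpl from -0.36 to 0.17, Cd9 from -0.20 to 0.01, Syk from -0.11 to 0.32, Adam10 from -0.09 to 0.01, Ctsl from -0.01 to 0.28, Lrp1 from -0.02 to 0.32, Cd44 from -0.01 to 0.86, Fabp4 from -0.08 to 0.39, Bhlhe41 from -0.45 to 0.00, Bace2 from -0.07 to 0.45, Anpep from -0.03 to 0.42, Creg1 from -0.01 to 0.44, Gpld1 from -0.07 to 0.47, Mitf from -0.08 to 0.13, Tfeb from -0.02 to 0.20 and Fabp2 from -1.03 to 1.22, and Fabp2 was also 0.06 with limma-voom and 0.10 with the replicate block, where Mitf was -0.08. Over 63 genes (the 10 genes, the named genes of the pathway lists, the called and some other markers, and the genes most like Gpnmb and Trem2) and 756 alternatives, 675 kept their direction and their side of the threshold, 43 lost a call, 7 gained one and 31 changed sign.

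Pools of both genotypes share the numbers 1 and 2, but nothing in the labels ties a number to a batch or litter. Deviations from the group means correlated at 0.28 for number 1 and 0.25 for number 2 across genes. With 2 Gpnmb+ pools, the deviations of pool 2 are those of pool 1 with the sign reversed. The values for unlike numbers were therefore fixed at -0.28 and -0.25, and DBA/2J pool 3 gave -0.05 and 0.05. These correlations cannot show whether pools were paired. With the pool number as a replicate block, 220 genes were called over all genes, 12 in the lists and 1 of the 10, and the adjusted p of Fabp5 was 0.0823 in edgeR.

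The 5 libraries set the precision, and the depth of 43900661 to 49837758 counts does not limit these genes, the lowest of which held 1461 counts in a pool. Variation between mice inside a pool cannot be seen.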
